A study of Homo sapiens with 6 samples.

Results

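The genes described here are 10 genes through which tumour cells restrain or escape immune attack, found by symbol in a gene table of WM164 cells: CD274, PDCD1LG2, CD276, PVR, TNFRSF14, CD47, CD200, LGALS1, LGALS3 and LGALS9. All 10 were among the 60504 genes of the table. WM164 is an established human melanoma cell line, and every library carried the label BRAFV600E, an activating mutation of the kinase BRAF. HDAC8 is a histone deacetylase, and the question was which genes change in their mRNA level when the cells receive it on a plasmid. The comparison set 3 libraries of cells transfected with an HDAC8 expression vector against 3 of cells transfected with an empty vector, called EV. According to the methods of the study, both plasmids were introduced by lipofection and both lines were kept under hygromycin, so this selection was common to the groups, and whether a line was a clone or a pool is not given in the sources used here. Nothing in the labels says that the 3 libraries of a group came from separate cultures, so the p-values measure only the spread between these libraries, which may be technical.

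Immune checkpoints are ligand and receptor pairs that damp the activity of lymphocytes and macrophages. CD274 (PD-L1) and PDCD1LG2 (PD-L2) engage the T cell receptor PD-1, PVR (CD155) engages TIGIT, CD96 and the activating receptor CD226, and TNFRSF14 (HVEM) engages BTLA and CD160. CD47 binds SIRPA on macrophages and inhibits phagocytosis, CD200 binds an inhibitory receptor of myeloid cells, and CD276 (B7-H3) is a B7 family protein found on many tumours. The galectins LGALS1, LGALS3 and LGALS9 are sugar-binding proteins that cells release, and each can restrain or kill T cells. In many tumours interferon gamma raises CD274 through JAK and STAT signalling and the factor IRF1. Melanomas can carry several of these ligands at once, and mRNA levels do not give the amount of protein at the cell surface.

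RefSeq promoter windows (build GRCh38.p14, 250 bases before to 50 after the annotated start, 5′ to 3′ on the strand of the gene) were found for 8 of the 10 members. They were searched on both strands for 6 motifs: an AP-1 site (TGANTCA), an interferon response element (GAAA, NN, GAAA in 1 run), the STAT-binding GAS element (TTCNNNGAA), a TEAD site (GGAATG), the M-box of MITF (TCATGTG) and a GC box (GGGCGG). Windows of 3 members are printed, CD274 because it holds the interferon motifs and PVR and LGALS3 because their transcripts differed between the groups. Capitals mark every match to any of the 6 motifs on either strand. The CD274 window is at chr9:5450292-5450591 (+), the PVR window at chr19:44643660-44643959 (+) and the LGALS3 window at chr14:55129002-55129301 (+).
CD274: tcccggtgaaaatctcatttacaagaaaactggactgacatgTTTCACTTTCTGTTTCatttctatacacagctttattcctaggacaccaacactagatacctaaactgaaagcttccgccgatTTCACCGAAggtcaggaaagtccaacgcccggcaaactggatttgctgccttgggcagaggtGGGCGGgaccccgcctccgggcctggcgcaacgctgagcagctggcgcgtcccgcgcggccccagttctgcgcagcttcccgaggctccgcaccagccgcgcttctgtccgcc
PVR: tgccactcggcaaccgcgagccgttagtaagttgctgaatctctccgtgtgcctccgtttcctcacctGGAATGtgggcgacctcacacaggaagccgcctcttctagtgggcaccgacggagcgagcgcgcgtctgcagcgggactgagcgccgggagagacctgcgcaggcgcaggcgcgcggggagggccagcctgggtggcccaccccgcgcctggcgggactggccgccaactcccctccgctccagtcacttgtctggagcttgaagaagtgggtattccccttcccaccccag
LGALS3: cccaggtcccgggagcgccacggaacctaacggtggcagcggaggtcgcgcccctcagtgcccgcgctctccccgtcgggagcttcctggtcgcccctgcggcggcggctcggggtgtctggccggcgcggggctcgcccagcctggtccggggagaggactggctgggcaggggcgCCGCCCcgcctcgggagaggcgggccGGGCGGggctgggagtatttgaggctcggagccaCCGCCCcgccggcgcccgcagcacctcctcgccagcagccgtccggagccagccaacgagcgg
In CD274 the interferon response letters matched at -208 and at -202 from the start, in 2 overlapping copies read on the opposite strand, the GAS letters matched at -125 and a GC box at -63. Of 35116 RefSeq promoter windows of the same length, 3.57% held the interferon response letters, 7.66% the GAS letters and 45.0% a GC box. The only match in PVR was the TEAD site at -182, a motif held by 14.0% of all windows. LGALS3 held GC boxes at -73, -47 and -13 and no match to the other 5 motifs. Among the members whose windows are not printed, TNFRSF14 held a TEAD site at -48, LGALS9 an interferon response match at -9, CD47 and CD276 GC boxes, and CD200 none of the 6. The AP-1 letters, in 7.71% of all windows, and the M-box letters, in 2.92%, were in none of the windows of these 8 members. This says only that these letters are not in these windows. LGALS1 and PDCD1LG2 had no window and were not searched for any of the 6 motifs.

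Total expected counts ran from 34741083 to 42041462 per library. Principal components were taken over the most variable genes alone, and the shares given are of the variance of those genes. The first component separated EV from HDAC8 and held 79.1%. Along the second (12.5%) the first HDAC8 library stood apart from the others of its group, at 12.46 against -9.69 and -4.26. Transcripts of the mitochondrial genome took 9.66% to 12.8% of counts in EV and 4.46% to 7.94% in HDAC8. The HDAC8 transcript itself did not check the labels: it was at 383.7, 404.4 and 478.8 normalized counts (counts divided by the DESeq2 size factor of the library) in EV and at 484.8, 445.5 and 473.7 in the libraries labelled HDAC8, a log2 fold change of 0.15 with an SE of 0.28 (DESeq2 adjusted p = 0.860). Every direction below is therefore that of the labels and not of a measured rise in HDAC8 mRNA. The study also probed HDAC8 protein by immunoblot in melanoma cells carrying either vector, and protein was not measured in the libraries used here. All 9 melanocytic markers were detected, with a summed level of 246246 to 330289 normalized counts in EV and 138385 to 184053 in HDAC8. PMEL carried most of this sum, and the markers did not move alike. PMEL, MLANA, TYR, DCT and S100B were called lower (5 of 9), while TYRP1, MITF (log2 fold change -0.20), SOX10 (-0.33) and MIA (0.21) were not called. TYRP1 was low, at 62.9, 32.7 and 21.7 normalized counts in EV and 0, 0 and 17.4 in HDAC8. All its HDAC8 libraries were below all EV libraries (log2 fold change -2.76, DESeq2 adjusted p = 0.304). Of 9 leukocyte markers, MS4A1 had no counts and PTPRC at most 3 in any library, and the 9 together summed to 111.1 to 255.2 in EV and 208.0 to 282.7 in HDAC8. LYZ, at 48.7 to 229.5 over the 6 libraries, was the most abundant of them, and the T cell gene CD3E, at 0 in every EV library and at 78.7, 91.1 and 50.1 in HDAC8, was the 1 marker called (higher, DESeq2 adjusted p = 1.12e-06). The endothelial marker CDH5 and the epithelial marker EPCAM were at 0 throughout, and the 3 markers of each type summed to 97.5 to 202.9 and 38.3 to 86.7 in EV and to 114.3 to 218.0 and 0 to 41.0 in HDAC8. These are bulk RNA samples, in which fewer cells of a kind and less RNA per cell cannot be told apart, and the part of the 5 lower melanocytic markers and of CD3E in the differences below was not tested.

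LGALS1 and PVR were the members that rose in the libraries labelled HDAC8, and LGALS3 was lower by just less than the fold minimum. To be called, a gene needed a log2 fold change of 0.58 or more in either direction and a DESeq2 adjusted p below 0.05. Of the 10 members 9 could be tested, 2 were called higher and 0 lower, while among all 21532 genes with an adjusted p 10.7% were called, 5.41% higher and 5.28% lower. A mean of at least 50 normalized counts was reached by 8 members, and among all such genes with an adjusted p 14.0% were called. At an unadjusted p under 0.05 and any fold, 2 members were higher and 2 lower (LGALS3 and CD274), against 2551 higher and 2532 lower of all 26166 genes tested. The edgeR test also called 2 members higher and 0 lower, where it called 1080 of all genes tested higher and 1045 lower. Limma-voom called 2 members higher and 1 lower, LGALS3, where it called 994 of all genes higher and 1082 lower. At any fold, 3 members had an adjusted p under 0.05, against 12.6% of all genes. The groups did not overlap for 4 members, 2 with all HDAC8 libraries higher and 2 with all lower, against 24.0% of all 26166 genes tested, 11.3% higher and 12.7% lower. The median log2 fold change of the tested members was -0.29, beside 0.00016 for all genes tested. Over those with a mean of at least 50 normalized counts, which leaves out LGALS9, it was -0.13, beside -0.0013 for all such genes. Counts this small over 9 genes are a description and no result about the group.

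**Figure D1:**
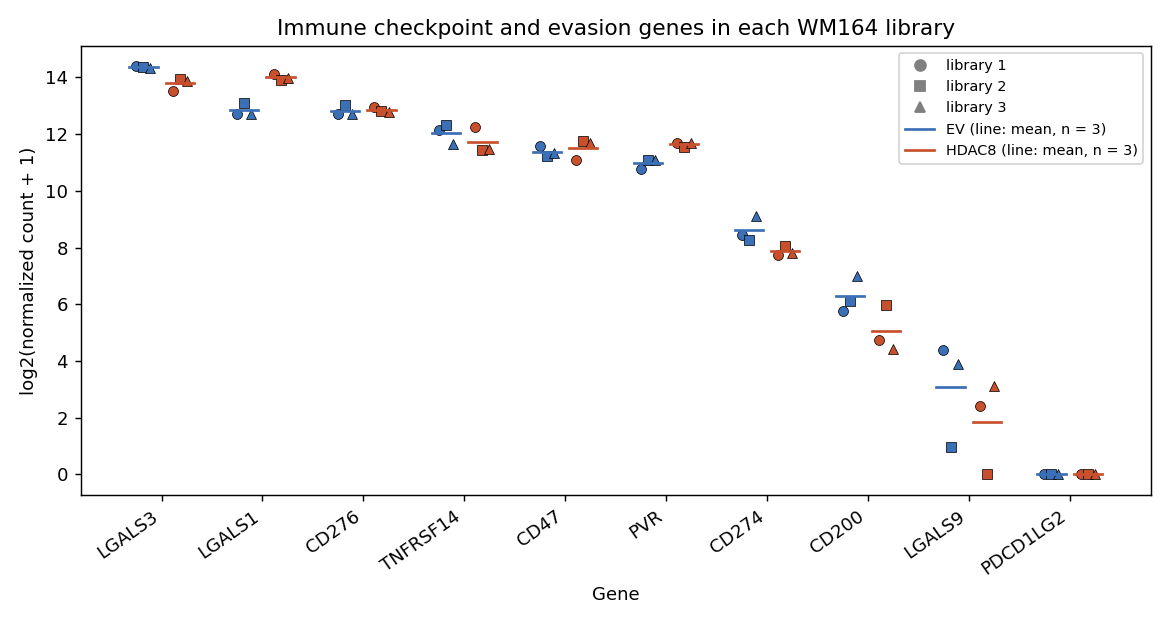
Level of each member in every library, as log2(normalized count + 1) on the vertical axis, with EV and HDAC8 libraries side by side for each gene on the horizontal axis; each point is 1 library and each line the mean of the 3 plotted values. The groups stand apart for LGALS1 and PVR (HDAC8 higher) and for LGALS3 and CD274 (HDAC8 lower), and PDCD1LG2 is at 0 in all 6 libraries.

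Among the galectins, LGALS1 (ENSG00000100097, chr22:37675636-37679802, + strand) gave the largest difference of the members that passed the test. It was at 6634, 8702 and 6747 normalized counts in EV and at 17888, 15432 and 16083 in HDAC8. Every HDAC8 library was far above every EV library, and the spread within each group was small beside the gap. The means were 7361 ± 1163 and 16467 ± 1272 (SD, n = 3 each), a 2.24-fold rise with a log2 fold change of 1.16 ± 0.15 (SE, 95% interval 0.87 to 1.45, DESeq2 adjusted p = 4.08e-13). LGALS1 was called under all 16 alternatives tried, at log2 fold changes of 1.06 to 1.30.

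LGALS3 (ENSG00000131981, chr14:55124110-55145423, + strand), the galectin whose promoter window with its 3 GC boxes is printed above, went the other way. Its level was 21483, 21184 and 20837 normalized counts in EV and 11771, 15814 and 15189 in HDAC8. The EV libraries were nearly level, all 3 HDAC8 libraries were below them, and the first HDAC8 library was the lowest. The means of 21168 ± 323.5 and 14258 ± 2176 (SD, n = 3 each) gave a log2 fold change of -0.57 ± 0.14 (SE, 95% interval -0.85 to -0.29), 1.48-fold lower in HDAC8, with a DESeq2 adjusted p of 9.99e-04. This value passed the p threshold and narrowly missed the fold minimum, and it crossed that minimum under 5 of 16 alternatives, at -0.58 to -0.65. Without the first HDAC8 library it was -0.45.

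Since both galectins were read in the same libraries, their ratio within a library does not depend on how libraries are scaled. On a level per length (counts divided by the exon length of the gene, scaled to the same sum in each library), LGALS1 divided by LGALS3 was 0.636, 0.847 and 0.667 in EV and 3.13, 2.01 and 2.18 in HDAC8. LGALS3 was thus the more abundant galectin transcript in each EV library and LGALS1 in each HDAC8 library. The mean ratio was 0.717 ± 0.114 in EV and 2.44 ± 0.604 in HDAC8 (SD, n = 3 each), 3.41 times higher. The order within EV depends on the length used: with the longest transcript in place of all exons the EV ratios were 0.841 to 1.12, while the HDAC8 ratios were 2.66 to 4.14 and the change between groups was the same.

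**Figure D2:**
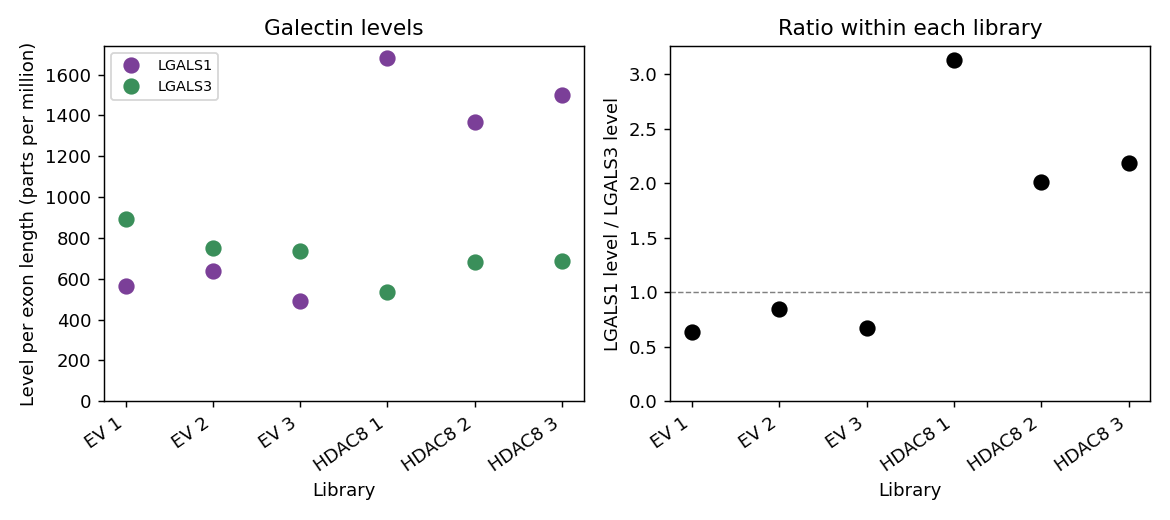
Left, levels of LGALS1 and LGALS3 per exon length (scaled as TPM, linear axis from 0) in each of the 6 libraries; right, LGALS1 divided by LGALS3 in each library, with a dashed line at equal levels. The 3 EV ratios lie between 0.636 and 0.847 and the 3 HDAC8 ratios between 2.01 and 3.13. Levels on the left are scaled otherwise than the DESeq2 counts, so their change between groups differs from the DESeq2 fold change.

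LGALS9 (ENSG00000168961, chr17:27629798-27649560, + strand), a ligand of the T cell receptor TIM-3, was close to the detection limit. It had 19.9, 0.93 and 13.8 normalized counts in EV and 4.28, 0 and 7.62 in HDAC8. The groups overlapped, and the floor of 3 counts is worth 2.57 to 3.27 normalized counts here. A log2 fold change of -1.54 ± 2.13 (SE, 95% interval -5.71 to 2.62, DESeq2 adjusted p = 0.782) leaves both a rise and a fall possible at this depth. LGALS9 has near-identical copies, LGALS9B and LGALS9C, and shares 294 exon bases with the gene ENSG00000266728, so its reads are hard to assign. With both copies added the log2 fold change was -0.43 (adjusted p = 0.938).

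PVR (ENSG00000073008, chr19:44643798-44666162, + strand), the ligand of TIGIT and CD96, rose. Its level was 1746, 2196 and 2178 normalized counts in EV and 3279, 3021 and 3291 in HDAC8. The lowest HDAC8 library was well above the highest EV library, and the first EV library was the lowest of all. The means were 2040 ± 255 and 3197 ± 152 (SD, n = 3 each), a 1.57-fold rise with a log2 fold change of 0.65 ± 0.17 (SE, 95% interval 0.32 to 0.97, DESeq2 adjusted p = 0.00174). Without the first EV library the log2 fold change was 0.55 (adjusted p = 0.0461), under the fold minimum, so the call rests on that library. PVR shares 2028 exon bases on its own strand with ENSG00000279095, an unverified gene model that held 92, 61 and 124 expected counts in EV and 177, 216 and 176 in HDAC8, and the splitting of reads between them was not tested.

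Of the ligands of PD-1, CD274 was expressed and PDCD1LG2 was not detected. CD274 (ENSG00000120217, chr9:5450503-5470566, + strand) was at 350.2, 310.1 and 559.6 normalized counts in EV and at 212.1, 262.2 and 225.4 in HDAC8. All HDAC8 libraries were below all EV libraries, but the gap was narrow and the third EV library was far above the other two. The means were 407 ± 134 and 233 ± 26.0 (SD, n = 3 each), and the log2 fold change of -0.80 ± 0.36 (SE, 95% interval -1.52 to -0.09) did not pass (DESeq2 adjusted p = 0.142). Without the third EV library it was -0.51 (adjusted p = 0.632). When only genes with at least 10 counts in every library were tested the same difference passed, at an adjusted p of 0.0460, so its call depended on the filter.

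PDCD1LG2 (ENSG00000197646, chr9:5510531-5571282, + strand), which starts 60.0 kb beyond CD274, had 0 counts in all 6 libraries and was not tested. A count of 0 allows up to 3 counts, counting error only. Per exon length, CD274 was 40.9 to 112.1 times above this limit in the same libraries.

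The other ligands did not differ beyond their spread. CD276 (ENSG00000103855, chr15:73683966-73714514, + strand) was at 6647, 8323 and 6629 normalized counts in EV and at 7891, 7125 and 7017 in HDAC8, with the HDAC8 values inside the EV range. CD276 differed by 0.03 ± 0.15 on the log2 scale (SE; adjusted p = 0.962 by DESeq2), and the 95% interval of -0.26 to 0.32 excludes a change as large as the fold minimum. CD47 (ENSG00000196776, chr3:108043091-108091862, - strand), the ligand of SIRPA, was at 3074, 2376 and 2600 in EV and at 2192, 3448 and 3280 in HDAC8. The first HDAC8 library was the lowest of the 6 for CD47 and the other two the highest, and the log2 fold change was 0.15 ± 0.20 (SE, 95% interval -0.25 to 0.54, DESeq2 adjusted p = 0.777).

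TNFRSF14 (ENSG00000157873, chr1:2555639-2565382, + strand) varied most within the HDAC8 group among the abundant members. It was at 4515, 5066 and 3240 normalized counts in EV and at 4880, 2747 and 2878 in HDAC8. The first HDAC8 library sat among the EV libraries and the other two below all of them. The log2 fold change was -0.29 ± 0.23 (SE, 95% interval -0.73 to 0.16, DESeq2 adjusted p = 0.521). It was called lower without the first HDAC8 library (-0.61, adjusted p = 0.00618), while normalization by GC bins gave -0.52 with an adjusted p of 0.00199, short of the fold minimum. Strand-specific counting is not stated, and TNFRSF14 overlaps its antisense gene TNFRSF14-AS1 over 826 exon bases. That antisense gene held 1202, 1416 and 1311 expected counts in EV and 1572, 608 and 809 in HDAC8, also highest in the first HDAC8 library, and its part in the TNFRSF14 values was not tested.

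CD200 (ENSG00000091972, chr3:112332347-112362812, + strand) was expressed at a low level of 53.5, 69.1 and 127.1 normalized counts in EV and 25.7, 61.4 and 20.7 in HDAC8. The groups overlapped through the second HDAC8 library. The log2 fold change of -1.21 ± 0.79 (SE, 95% interval -2.76 to 0.34) did not pass the test (DESeq2 adjusted p = 0.387), and at this depth a large fall cannot be told from none. CD200 shares 355 exon bases with the gene ENSG00000239482 on the same strand. That gene held 45.9, 80.8 and 76.0 expected counts in EV and 0, 0 and 45.0 in HDAC8. CD200 itself held 51.1, 74.2 and 129 in EV and 30, 60 and 19 in HDAC8, and the splitting of reads between them was not tested.

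**Figure D3:**
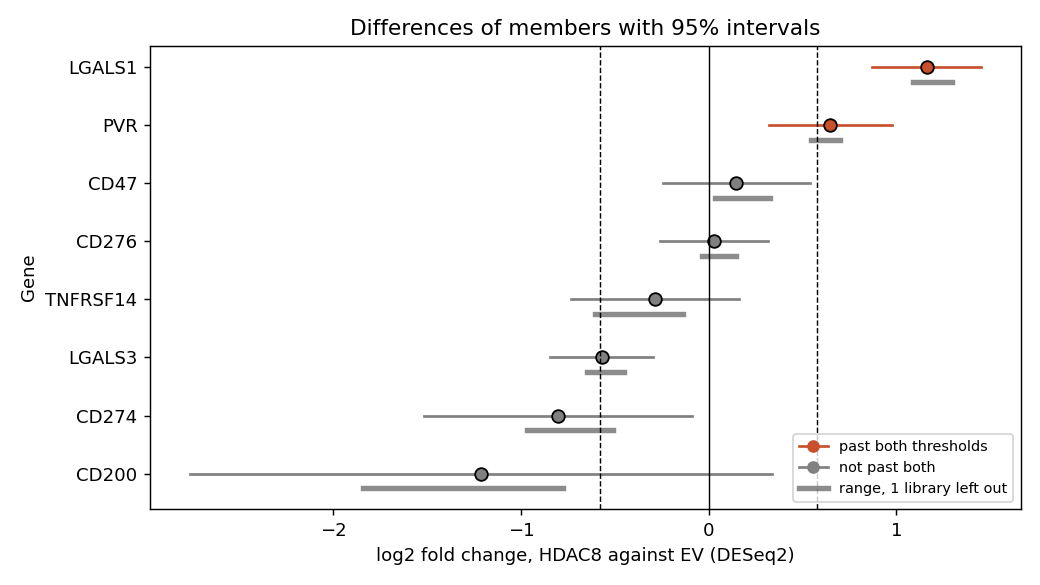
Log2 fold change of HDAC8 against EV (DESeq2, horizontal axis) for 8 members, with the 95% interval as a thin line and the range over fits that leave out 1 library as a thick grey line; dashed lines mark the fold minimum of 0.58. LGALS1 at 1.16 and PVR at 0.65 lie past both thresholds; LGALS9, whose interval runs from -5.71 to 2.62, and PDCD1LG2 are not drawn.

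Levels of different genes were compared per length, on the same scale as the ratio of the galectins (TPM). This scale serves to compare genes within a group, because it scales the libraries otherwise than the DESeq2 size factors do. Between the groups it can depart from the DESeq2 fold changes. CD276 ran from 93.9 to 118.4 per length in EV and from 123.1 to 144.3 in HDAC8, while its DESeq2 log2 fold change was 0.03. In EV the order was LGALS3 (792.6 ± 85.4), LGALS1 (564.7 ± 72.7), CD276 (107.6 ± 12.5), TNFRSF14 (56.8 ± 14.2), CD47 (27.0 ± 6.16), PVR (16.0 ± 0.618), CD274 (8.08 ± 2.36), CD200 (2.25 ± 0.916) and LGALS9 (0.173 ± 0.153; SD, n = 3), and neighbours did not overlap. In HDAC8 it ran LGALS1 (1516 ± 156), LGALS3 (634.8 ± 85.0), CD276 (131.6 ± 11.3), TNFRSF14 (55.6 ± 20.2), CD47 (35.3 ± 7.47), PVR (30.1 ± 2.31), CD274 (5.56 ± 0.444), CD200 (1.17 ± 0.682) and LGALS9 (0.0692 ± 0.0665). CD47 and PVR overlapped there. With the longest transcript as the length PVR was above CD47 in HDAC8 (38.6 against 34.0), and the 2 leading galectins overlapped in EV. The members thus span most of the range of expression: LGALS1 and LGALS3 were above 99.8% and 99.7% of the genes tested, CD276 above 96.7%, CD274 above 59.8% and LGALS9 above 6.02%. CD276 exceeded CD274 per length by 8.88 to 20.1 times in EV libraries and by 20.4 to 27.9 times in HDAC8 libraries. With the longest transcript as the length these multiples were 13.1 to 29.6 in EV and 30.0 to 41.0 in HDAC8.

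For each called member, the gene whose log2 level was most like it over the 6 libraries was found among 14451 genes with a mean of at least 50 normalized counts. It was TIAM2 for PVR (Pearson r = 0.9998) and ADGRE5 for LGALS1 (r = 0.9994). TIAM2 was at 486.5, 748.1 and 738.9 normalized counts in EV and 1609, 1366 and 1576 in HDAC8, and ADGRE5 at 1230, 1999 and 1277 in EV and 6708, 5537 and 5483 in HDAC8. Both follow the order of the libraries seen in the member, except for 1 swap between HDAC8 libraries of close level. As the points share their libraries and fall into 2 groups, high values are common: 363 genes passed r = 0.95 with PVR and 544 with LGALS1.

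Related immune genes were read in 7 lists that held 101 genes together, of which 75 were tested and 66 had an adjusted p. Of these, 4 were called higher and 9 lower, where 5.41% and 5.28% of all genes were, and the groups did not overlap for 27 of the 75, against 24.0% of all genes tested. Their median log2 fold change was -0.05, near the 0.00016 of all genes tested. Of the 101 genes, 20 had at most 3 counts in every library, IDO1, CD86 and FASLG among them. A mean of at least 50 normalized counts was reached by 58, and among all such genes with an adjusted p 14.0% were called.

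Of 14 genes of soluble and enzymatic suppression, 10 were tested and 9 had an adjusted p. Among these 9, 1 was called higher and 2 lower, where 5.41% and 5.28% of all genes with an adjusted p were. The groups did not overlap for 7 of the 10, against 24.0% of all genes tested. Counts this small are a description and no result about the list. NT5E (CD73, chr6:85449584-85495791), the surface enzyme that makes adenosine, was at 803.1, 684.6 and 631.5 normalized counts in EV and 4237, 5979 and 6436 in HDAC8. This was a 7.86-fold rise, or 2.97 ± 0.19 on the log2 scale (SE; adjusted p = 1.26e-50 by DESeq2). The prostaglandin enzymes moved oppositely. PTGS2 (COX-2, chr1:186671791-186680922) was at 265.3, 344.6 and 353.7 in EV and 5.13, 24.6 and 0 in HDAC8, a log2 fold change of -5.02 ± 0.73 (SE, adjusted p = 4.33e-10). PTGES, which makes prostaglandin E from the PTGS2 product, fell from a mean of 149.6 to 18.8 (log2 fold change -2.99 ± 0.67, SE, adjusted p = 1.87e-04).

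Among the 19 receptors of the members, 15 were tested and 12 had an adjusted p. Of these 12, 1 was called higher and 1 lower, where 5.41% and 5.28% of all genes with an adjusted p were. The higher one was CD96 (chr3:111292719-111665750), a receptor of PVR known from T and NK cells. It was at 49.3, 34.6 and 105.4 normalized counts in EV and 654.1, 1012 and 1069 in HDAC8, a 14.5-fold rise (log2 fold change 3.85 ± 0.40, SE, DESeq2 adjusted p = 5.99e-20). The leukocyte marker PTPRC stayed at or below 3 counts in the same libraries, whereas CD3E was detected in the HDAC8 libraries alone, as given above, and its part in the CD96 values was not tested. The lower one was RGMB, a PDCD1LG2-binding protein, at -0.62 (adjusted p = 0.0285), a call lost under 8 of 16 alternatives. SIRPA, the receptor of CD47, and CTLA4 are named after their values were seen. SIRPA was at a mean of 15748 in EV and 10715 in HDAC8 (log2 fold change -0.56, adjusted p = 0.00246, short of the fold minimum), and CTLA4 at 1006 and 972.2 (-0.05, adjusted p = 0.958).

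Of 17 regulators of CD274, all tested, 2 were called higher and 3 lower. All 17 had a mean of at least 50 normalized counts, and among all such genes with an adjusted p 14.0% were called in either direction. The AP-1 subunits JUN (means of 573.5 in EV and 1301 in HDAC8, log2 fold change 1.18, DESeq2 adjusted p = 4.72e-05) and FOSL1 (1069 and 2364, 1.14, adjusted p = 4.39e-09) rose. CMTM4, which protects PD-L1 protein from degradation, fell from 2381 to 1403 (-0.76, adjusted p = 8.13e-04). IRF2 (-0.84, adjusted p = 0.0186) and the interferon signalling kinase JAK2 (-0.59, adjusted p = 0.0438) fell too, but these calls were lost under 7 and 11 of 16 alternatives. The interferon response factor IRF1, named after its values were seen, was not called, at -0.15 (adjusted p = 0.935). CMTM6, another gene of this list named after its values were seen, was not called either, at -0.25 (DESeq2 adjusted p = 0.571).

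The remaining lists held few calls, and their counts are a description and no result about a list. Among all genes with an adjusted p 10.7% were called in either direction. In the galectin family and its partners, 5 of 14 genes were tested and only 3 had an adjusted p, while 8 had at most 3 counts in every library. Of these 3, 2 were called, both lower. LGALS8 (chr1:236518000-236552981) was at 893.3, 778.9 and 902.4 normalized counts in EV and 233.4, 215.1 and 206.9 in HDAC8, 3.93-fold lower (log2 fold change -1.97 ± 0.26, SE, DESeq2 adjusted p = 7.07e-12). LGALS3BP, a secreted protein that binds LGALS3, fell from 42961 to 28062 (-0.61, adjusted p = 0.00153), and that call was lost under 4 of 16 alternatives. With LGALS1 higher and LGALS8 lower, the galectins that passed the test did not share a direction. CD55, a surface protein that blocks complement, was the only call of 4 protective genes, 3 of them with an adjusted p. It fell from 4598 to 2681 (-0.78, DESeq2 adjusted p = 1.49e-04). Of 26 other checkpoint and costimulatory ligands 21 were tested and 18 had an adjusted p, and of 8 NKG2D ligands 5 were tested and had one. In both lists DESeq2, edgeR and limma-voom each called 0. At an unadjusted p under 0.05 DESeq2 had 1 higher and 1 lower among the checkpoint and costimulatory ligands and 0 among the NKG2D ligands.

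**Figure D4:**
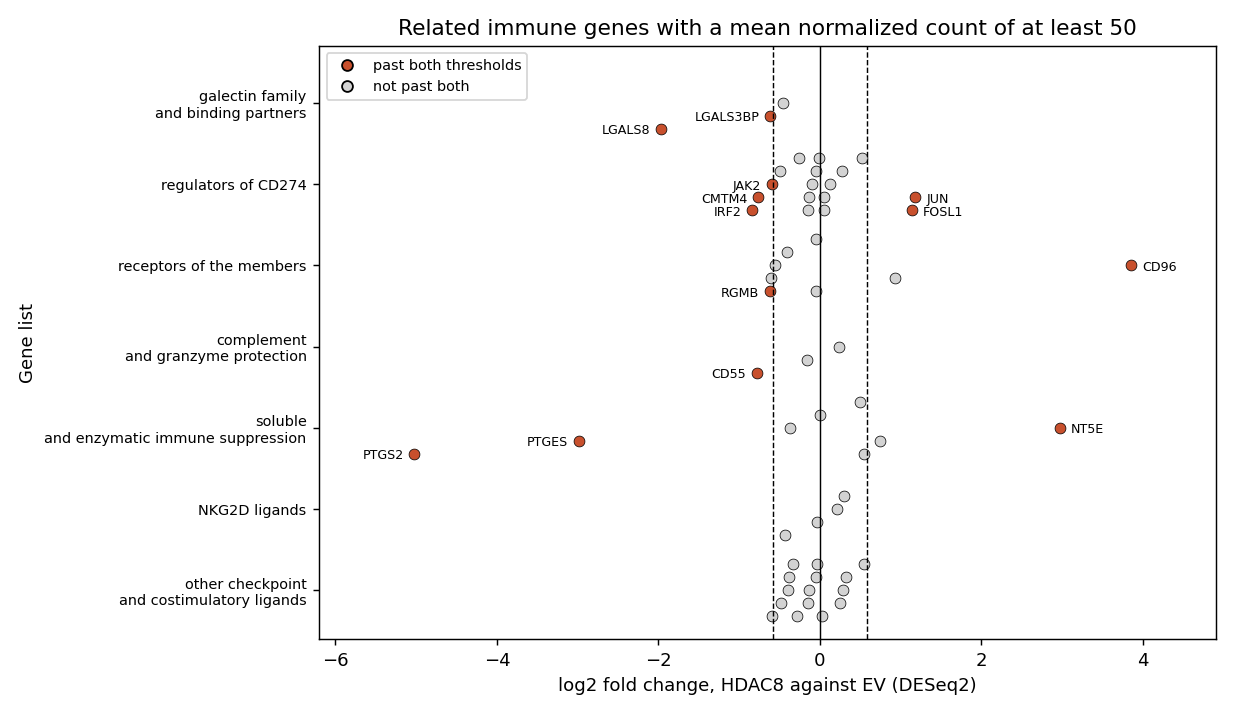
Log2 fold change of HDAC8 against EV (DESeq2, horizontal axis) for the genes of the 7 lists with a mean of at least 50 normalized counts, 1 row of points per list (the vertical offset within a row has no meaning); named red points passed both thresholds and dashed lines mark a fold change of 0.58 in size. NT5E and CD96 lie farthest to the right, PTGS2 and PTGES farthest to the left, and most points lie between the dashed lines.

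CD274 lies on the short arm of chromosome 9, and 55 other genes start within 1 Mb of it. Of these, 33 were tested and 31 had an adjusted p. DESeq2 called 0 of them higher and 3 lower, where 5.41% and 5.28% of all genes with an adjusted p were. At an unadjusted p under 0.05, 2 were higher and 6 lower, against 2551 and 2532 of all 26166 genes tested. Counts this small are a description and no result about the region. The lower genes were JAK2, at -466.1 kb from CD274, MTND6P5, a copy of a mitochondrial gene that can share reads with the mitochondrial transcripts, and MLANA, a melanocyte pigment cell antigen 440.4 kb beyond. The JAK2 call was lost under 11 of 16 alternatives, and MTND6P5 was low, at means of 45.5 normalized counts in EV and 0.683 in HDAC8. The edgeR test called the same 3 lower and 0 higher, whereas limma-voom called MTATP6P11, another mitochondrial copy, in place of JAK2, and SLC1A1 higher. MLANA was at 8617, 8323 and 9053 normalized counts in EV and 236.9, 300.1 and 372.4 in HDAC8 (log2 fold change -4.84 ± 0.18, SE, DESeq2 adjusted p = 2.54e-161). The nearest neighbours of CD274 with a mean of at least 50 normalized counts were not called: PLGRKT, at -12.6 kb from it, was at 0.39 (adjusted p = 0.802) and RIC1, 178.5 kb beyond, at -0.43 (adjusted p = 0.221).

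**Figure D5:**
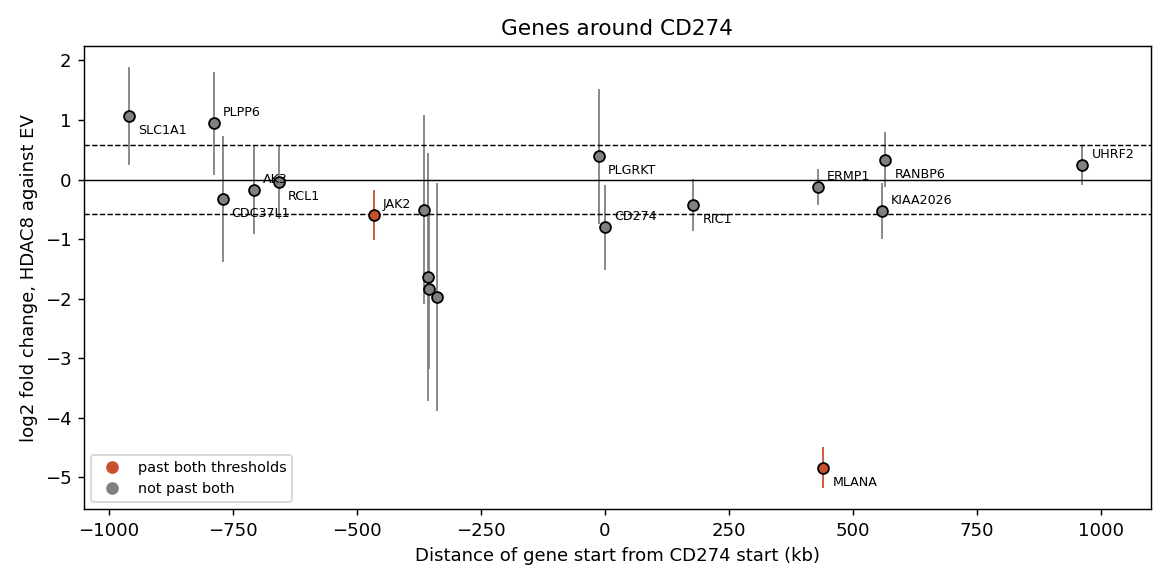
Log2 fold change of HDAC8 against EV (DESeq2, vertical axis) of genes around CD274 by the distance of their start from that of CD274 in kb (horizontal axis), each point being 1 gene with a mean of at least 50 normalized counts. MLANA at -4.84 is far below its neighbours, and CD274 at -0.80 lies below PLGRKT at 0.39 and RIC1 at -0.43.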

How the data were processed

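RNA was sequenced from 6 WM164 libraries, grouped and numbered by their labels. From paired-end reads trimmed by Trimmomatic and mapped on the transcriptome by STAR, the authors derived a value per gene with RSEM. Their table holds expected counts as deposited, unscaled between libraries, in which a read can be shared between genes, and 6.82% to 9.48% of values per library were not whole. Genome build, annotation release, strand setting and duplicate removal are not given in the sources used here, and the labels and the methods of the study name different RNA extraction kits.

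Expected counts were rounded, and 26166 genes with a total of at least 10 were compared by DESeq2 1.42.0 (Wald test, two-sided, R 4.3.3, size factors 0.918 to 1.17, no covariates). The methods of the study name DESeq2 with the same FDR and fold thresholds; rounding, the filter and the absence of covariates were choices made here, and a caption of the study uses an uncorrected p. Benjamini-Hochberg adjusted p-values were given for 21532 genes, and 4634 without one were left out of calls. A call needed an adjusted p under 0.05 together with 0.58 or more, in either direction, on the log2 scale. The 16 alternatives included edgeR 4.0.16 and limma 3.58.1. The fits were tested on simulated data. Positions and lengths came from GENCODE release 44 (GRCh38), in which 56558 identifiers were found. The sources used here mention no molecular identifiers, so reads may repeat a molecule, and the floor of 3 counts reflects counting error alone. Intervals (95%) come from the DESeq2 standard error.

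The members and lists were chosen with earlier results of these data known. Genes named were all members, the called genes of each list with a mean of at least 50 normalized counts (at most 6 by size), genes around CD274 and the gene most like each called member; a gene named outside this rule is marked as such. No pair of replicates was alike to within sampling noise (chi-square per degree of freedom of 26 or more), so all 6 libraries were kept.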

Additional observations from a re-analysis of the deposited data

How the results depend on the processing

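LGALS1 kept its direction and its call under all 16 alternatives, and PVR kept its direction under all and its call under 14. LGALS3, CD274 and TNFRSF14 kept their direction and were called lower under some, so the members called lower were 1 instead of 0 with limma-voom (LGALS3), with at least 10 counts in every library (CD274) and with a replicate block (LGALS3), and 0 to 1 when 1 library was left out (LGALS3 without EV 3, HDAC8 2 or HDAC8 3, TNFRSF14 without HDAC8 1). The members called higher were 1 to 2 when 1 library was left out, with PVR lost without EV 1, and 1 in a test against the fold minimum. Over all genes, that test called 292 higher and 291 lower, against 1164 and 1136 in the comparison reported, and 3 genes of the related lists lower, against 9. Leaving out 1 library gave 746 (without EV 3) to 1377 genes lower. CD276 changed sign with GC-bin normalization (-0.0739), and ran from -0.0336 to 0.144 when 1 library was left out. Where leaving out a library changed a call there were fewer samples; otherwise the cause was not tested. The replicate numbers did not pair the libraries (correlations of deviations -0.027, -0.067 and 0.04, with 0 of 6 libraries closest to their own number). With them as a replicate block 1089 genes were called higher and 1094 lower, and 4 and 6 genes of the related lists. The depth limited LGALS9 and PDCD1LG2.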
